A study of Mus musculus with 10 samples.

Results

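The genes described are 10 precursors of neuropeptides, *Tac1*, *Penk*, *Pdyn*, *Npy*, *Sst*, *Cck*, *Grp*, *Nts*, *Cartpt* and *Nmu*, most of which mark neurons of the dorsal horn of the spinal cord. They were chosen by symbol, and all 10 had a row among the 25232 genes of the deposited table. The RNA came from the spinal cord (its lumbar region, by the methods) of 10 female mice of 90 days, labelled as C57BL/6, of which 5 were *SOD1G93A* and 5 were wild type (WT) littermates. *SOD1G93A* mice bear a high-copy human *SOD1* transgene that encodes a mutant protein of familial amyotrophic lateral sclerosis, is active in many cell types and leads to motor neuron degeneration. The WT littermates lack it. The table gives each gene 1 level, the base mean, which is the authors' mean over all libraries of read counts divided by DESeq2 size factors, with both genotypes pooled. No value of a single library was available here, so no spread between mice stands behind any level below. Differences between the genotypes were not analysed here.

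Neuropeptides are made as larger precursors that enter the secretory pathway, are cut by proprotein convertases at pairs of basic residues, trimmed by carboxypeptidase E and often amidated at the C-terminus before release from dense-core vesicles. They act on G protein-coupled receptors and modulate fast transmission by glutamate, GABA and glycine. In the dorsal horn, substance P from *Tac1* marks nociceptive afferents and projection neurons, enkephalins, dynorphins, neuropeptide Y and somatostatin label classes of local interneurons, and gastrin-releasing peptide belongs to the spinal itch pathway.

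All 10 genes had a base mean over 0, as did 20973 of the 25232 genes in the table. The authors' base means ran from 93.9 normalized counts for *Nmu* to 3258 for *Penk*, and 9 of the 10 reached 100, beside 59.9% of all genes over 0. Together the base means summed to 6904 normalized counts, or 0.0312% of the summed base means of all genes (22158933). Because long genes collect more reads, levels were compared between genes only per kb of annotated exons (the union of all exons of a gene in GENCODE M21, on GRCm38, the build that mm10 denotes). The precursor transcripts were short, and the longest annotated transcript of each of the 10 genes was below the median over all genes with a base mean over 0. On the per kb scale, the median of the 10 levels was 188 normalized counts per kb, beside 63.4 over all such genes, and their median percentile among 20403 genes was 70.9, beside 50 by construction over all genes.

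*Sst* had the highest level per kb. It encodes somatostatin, an inhibitory peptide that in the dorsal horn is made largely by excitatory interneurons. The authors' base mean was 1622 normalized counts, which gave a level of 2249 normalized counts per kb at percentile 98.5 of all detected genes. *Sst* is a compact gene of 2 exons on chromosome 16 from 23889573 to 23890958, on the minus strand, with 721 bases of exon sequence. Its promoter is a textbook target of the factor CREB. A stretch of 30 bases from its RefSeq window (GRCm38.p6, chr16:23890874-23890903, minus strand) is shown because it holds the full cyclic AMP response element, TGACGTCA, in capitals.
Sst: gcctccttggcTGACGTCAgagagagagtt
GENCODE M21 starts the gene further upstream than RefSeq does, so by that annotation the element lies in the 5′ UTR of its first exon.

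*Penk*, the precursor of the enkephalins, was next, at 1994 normalized counts per kb and percentile 98.2. It lies on chromosome 4 from 4133531 to 4138819 on the minus strand. Its authors' base mean of 3258 normalized counts was the highest of the 10, but its exons are longer (1634 bases). Per kb of all exons, the *Sst* level was 1.13 times the *Penk* level, and per kb of the longest transcript the levels were 2249 for both, so these genes have no settled order. Their levels made up 74.1% of the sum of the 10 levels per kb. In the plot of levels by gene they stand apart from the other 8, since the *Penk* level was 5.03 times that of the third gene, *Npy*, per kb of all exons and 3.71 times with 200 bases taken off each length. Per kb of the longest transcript the third gene was *Cck*, and the *Penk* level was 4.70 times higher. An annotated RNA on the opposite strand, *A830012C17Rik*, shares 233 exon bases with *Penk* and had no row in the table. The libraries were stranded and the strand setting of the counting is not given in the sources used here, so reads from it and from *Penk* cannot be told apart.

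**Figure D1:**
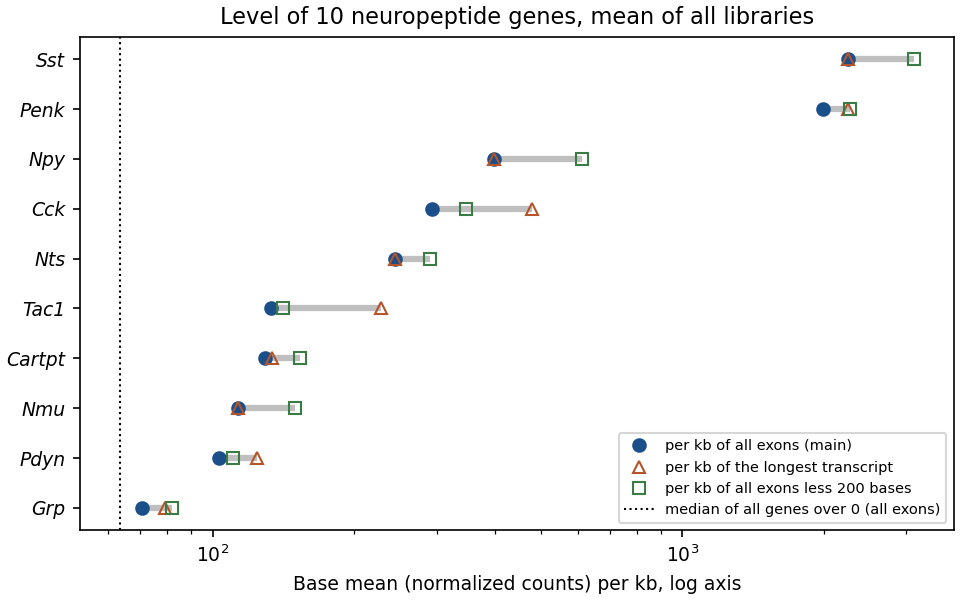
Base mean in normalized counts per kb (x axis, log scale) of each neuropeptide gene (y axis), as the authors' mean over all 10 libraries divided by 3 definitions of gene length. Circles use all exons, triangles the longest transcript and squares all exons less 200 bases, the grey bar spans the 3 values, and the dotted line marks the median of all detected genes (63.4). *Sst* and *Penk* lie between 1994 and 3113 normalized counts per kb over the 3 definitions, and the other 8 genes lie at or under 613.

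*Pdyn*, the precursor of the dynorphins, is the other opioid gene among the 10 and had a much lower level. It lies on chromosome 2 from 129686565 to 129699844 on the minus strand, and its authors' base mean of 297 normalized counts gave 103 normalized counts per kb, at percentile 59.0. The *Penk* level was 19.4 times the *Pdyn* level per kb. The classical opioid peptides of both precursors begin with the same 4 residues, tyrosine, glycine, glycine and phenylalanine. Codons for this opioid core were counted in frame in the longest coding sequence of each gene, from the GENCODE M21 transcripts. *Penk* held 7 copies, of which 6 were followed by a methionine codon and 1 by a leucine codon, and *Pdyn* held 3, all followed by a leucine codon. Of 21760 genes with a complete coding sequence, 71 (0.326%) had at least 1 copy and 4 had at least 3. The other genes with at least 3 were *Krtap19-2* and *Krtap19-4*, of the glycine- and tyrosine-rich keratin-associated proteins. Counting copies, the level of core-coding sequence (copies times normalized counts per kb) was 45.2 times higher for *Penk* than for *Pdyn*. A methionine copy and the leucine copy of *Penk* and 2 copies of *Pdyn* are shown to compare the core, in capitals, and its flanks, where codons for lysine and arginine lie on both sides. They are on the minus strands of GRCm38, at chr4:4134328-4134354, chr4:4133935-4133961, chr2:129688232-129688258 and chr2:129688124-129688150 in this order.
Penk copy 1: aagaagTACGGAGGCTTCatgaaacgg
Penk copy 6: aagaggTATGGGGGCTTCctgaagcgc
Pdyn copy 1: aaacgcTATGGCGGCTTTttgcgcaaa
Pdyn copy 2: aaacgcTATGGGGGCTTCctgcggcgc

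*Npy*, *Cck* and *Nts* formed the middle of the range. *Npy* encodes neuropeptide Y, made in the dorsal horn by inhibitory interneurons, and lies on chromosome 6 from 49822710 to 49829507 on the plus strand. Its authors' base mean was 224 normalized counts, and with only 566 bases of exon sequence, the shortest of the 10, its level was 396 normalized counts per kb at percentile 86.0. *Cck*, the precursor of cholecystokinin, lies on chromosome 9 from 121489824 to 121495694 on the minus strand. Its base mean was 382 normalized counts, and its level was 293 normalized counts per kb over all exons and 479 over the longest transcript, which is above *Npy*. The order of *Npy* and *Cck* therefore turned with the length definition. *Nts*, the neurotensin precursor on chromosome 10 from 102481756 to 102490486 on the minus strand, had a base mean of 304 normalized counts and a level of 244 normalized counts per kb at percentile 77.4. It was number 5 of the 10 under each of the 3 length definitions.

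*Tac1*, *Cartpt*, *Nmu* and *Pdyn* lay within a narrow range of 103 to 133 normalized counts per kb. *Tac1*, on chromosome 6 from 7554879 to 7565834 on the plus strand, encodes substance P and neurokinin A. It had the third highest base mean (452 normalized counts) but the longest exon union of the 10 (3399 bases, 5 transcripts), and its level was 133 normalized counts per kb of all exons and 229 per kb of the longest transcript. *Cartpt*, on chromosome 13 from 99898489 to 99901091 on the minus strand, encodes the cocaine- and amphetamine-regulated transcript peptides. Its base mean was 165 normalized counts and its level 129 normalized counts per kb, at percentile 63.8. *Nmu*, the neuromedin U precursor on chromosome 5 from 76333495 to 76363788 on the minus strand, had the lowest base mean, 93.9 normalized counts, yet its level of 113 normalized counts per kb was above that of *Pdyn*, whose exons are longer (2887 against 828 bases). Taking 200 bases off each length placed *Cartpt* and *Nmu* above *Tac1*, and the longest transcript placed *Pdyn* above *Nmu*, so the order within this group was not settled. *Nmu* shares 55 exon bases with *4930432L08Rik* on the opposite strand, a gene with a base mean of 41.5 normalized counts.

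*Grp*, the precursor of gastrin-releasing peptide on chromosome 18, was the lowest of the 10 per kb. Its base mean was 104 normalized counts and its level 70.7 normalized counts per kb, at percentile 51.9, close to the median of all detected genes. It was number 10 under each length definition. The highest of the 10 levels per kb was 31.8 times the lowest, and 28.4 to 38.1 times under the other definitions of length.

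The precursors were set beside 23 receptor genes of their peptides. In 21 of the 23 pairs the precursor had the higher level per kb, and the side changed in 0 pairs under the other length definitions. Many pairs share a precursor, so they are not separate results, and they are not limited to the preferred receptor of a peptide. By base mean with no length, 2 pairs changed side, *Npy* with *Npy1r* (ratio 0.988) and *Nmu* with *Nmur2* (0.857). The median over the receptors was 36.5 normalized counts per kb, and 4 of the 23 (*Tacr2*, *Npy4r*, *Sstr5* and *Nmur1*) had a base mean under 10. Whole tissue pools every cell type, and more cells of a type cannot be told apart from more RNA per cell.

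For the tachykinins, *Tacr1*, the receptor preferred by substance P, had a level of 68.4 normalized counts per kb and *Tacr3* one of 83.6, while *Tacr2* was at 3.34. The *Tac1* level was 1.94 times that of *Tacr1*. Among the opioid receptors the delta receptor gene *Oprd1* had 83.0 normalized counts per kb, the kappa receptor gene *Oprk1* 25.9 and the mu receptor gene *Oprm1* 18.7. Per kb of the longest transcript, *Oprm1* was at 62.2 and *Oprk1* at 50.6, so their order turned. The exon union of *Oprm1* is 8037 bases against 2420 for its longest transcript, that of *Oprk1* 9151 against 4675, and the ratio of *Penk* to *Oprm1* was 107 with the first and 36.2 with the second. The *Pdyn* level was 3.98 times that of *Oprk1*, the receptor preferred by dynorphin, per kb of all exons and 2.46 times per kb of the longest transcript.

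*Sst* had 5 receptor genes, led by *Sstr1* at 164 normalized counts per kb, then *Sstr2* (69.7), *Sstr3* (48.2), *Sstr4* (14.4) and *Sstr5* (1.85). The *Sst* level was 13.7 times that of *Sstr1*, the nearest of the 5. For neuropeptide Y, *Npy1r* was at 65.7 normalized counts per kb, *Npy5r* at 47.2, *Npy2r* at 36.5 and *Npy4r* at 1.92, and the *Npy* level was 6.03 times that of *Npy1r*. The cholecystokinin receptor known as the brain type, *Cckbr*, was at 118 normalized counts per kb, against 7.03 for *Cckar*. *Grpr*, the receptor of gastrin-releasing peptide, was at 13.1 normalized counts per kb, and the *Grp* level was 5.42 times higher. For neuromedin U, *Nmur2*, the receptor of the nervous system, was at 33.2 and *Nmur1* at 2.91 normalized counts per kb.

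Neurotensin was the exception. *Ntsr2*, at 1206 normalized counts per kb, was 4.94 times the level of *Nts*, and *Sort1*, at 1382, was 5.67 times its level, whereas *Ntsr1* was at 27.0, with *Nts* 9.04 times higher. *Ntsr2* is known to be expressed by astrocytes as well as neurons, and *Sort1* encodes sortilin, a sorting receptor with many other ligands. The receptor plot shows both symbols to the right of the *Nts* precursor.

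**Figure D2:**
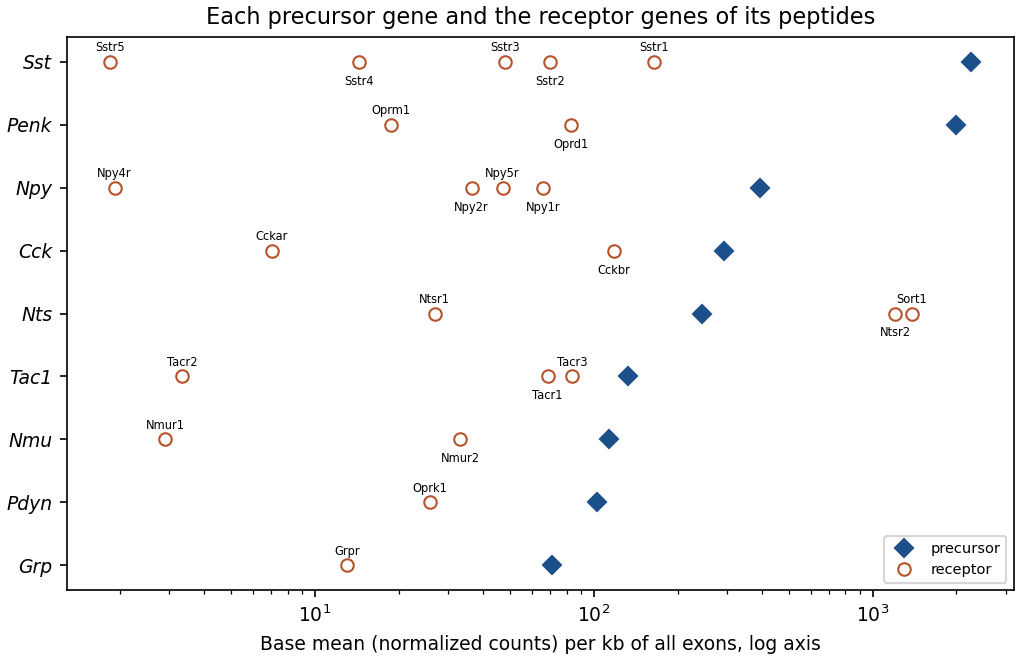
Base mean in normalized counts per kb of all exons (x axis, log scale) of each precursor gene (filled diamond) and of the receptor genes of its peptides (open circles, named), authors' mean over all 10 libraries. *Cartpt* is left out because no receptor of its peptides was listed. The precursor lies to the right of its receptors in all cases but *Nts*, where *Ntsr2* and *Sort1* are higher.

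Enzymes that mature the precursors and their helper proteins covered a wide range of levels. All 10 genes of this processing list had a base mean of at least 100, beside 59.9% of all genes over 0. This count takes no account of length, and their median exon union was 6046.5 bases, against 3597 over all genes over 0. The median level of the list was 467 normalized counts per kb of all exons and 776 per kb of the longest transcript. *Cpe* (carboxypeptidase E) had 9688 normalized counts per kb, and the helpers *Pcsk1n*, an inhibitor of convertase PCSK1, and *Scg5*, the chaperone of convertase PCSK2, had 2924 and 1704. The convertase genes were at 522 (*Pcsk2*), 144 (*Pcsk1*) and 85.4 (*Furin*) normalized counts per kb, the last at percentile 55.4. Over the 10 genes of peptide-degrading enzymes the median was lower, at 66.2 normalized counts per kb (105 per kb of the longest transcript), led by *Ece1* (286), *Thop1* (156) and *Ace* (154).

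The labelled tissue was checked on marker lists. The 16 dorsal horn markers all had a base mean of at least 10 and a median of 144 normalized counts per kb, led by the calcium-binding proteins *Calb2* (2134) and *Pvalb* (1888) and the inhibitory vesicular transporter *Slc32a1* (1524). The *Sst* and *Penk* levels were near those of *Calb2* and *Pvalb*, with an order that turned with the length definition. *Pvalb* also marks neurons outside the dorsal horn. At the low end of the dorsal horn list, *Maf* (60.2), *Rorb* (43.2) and *Tlx3* (38.9) lay under the median of all genes over 0 (63.4). General neuron markers had a median of 1109 normalized counts per kb, led by *Snap25*, *Tubb3* and *Stmn2*. The 8 motor neuron markers had a median of 122 normalized counts per kb, led by *Prph* (712), *Slc18a3* (485) and *Slc5a7* (410). The lowest of them were *Isl2* (21.4), *Mnx1* (16.6) and *Isl1* (11.5), under the median of all genes over 0 (63.4). Neurons of sensory ganglia also make several of these peptides, *Tac1* among them. The 8 sensory ganglion markers had base means from 8.80 to 241 normalized counts, none at 0, and a median level of 12.7 normalized counts per kb, led by *Pou4f1* (51.6), *P2rx3* (40.5) and *Avil* (21.1). Of the glial lists, oligodendrocyte (9637) and astrocyte (1651) markers had median levels per kb above that of general neuron markers, and microglia markers (256) one below it. Per kb of the longest transcript the medians were 1859 for general neuron, 224 for motor neuron, 17776 for oligodendrocyte, 2544 for astrocyte and 267 for microglia markers. The part of attached roots or ganglia in the peptide gene levels was not tested.

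**Figure D3:**
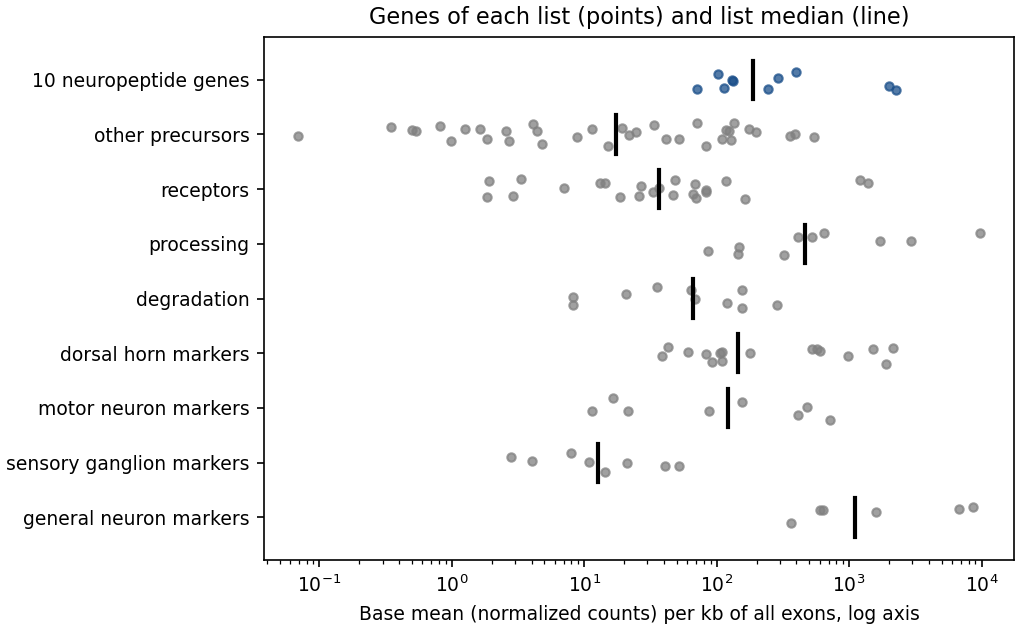
Base mean in normalized counts per kb of all exons (x axis, log scale) for the genes of each list (points; 1 precursor at 0 is not drawn) and the median of each list (vertical line), authors' mean over all 10 libraries. The 10 neuropeptide genes (blue) span 70.7 to 2249 with a median of 188. Medians of the marker lists were 1109 for general neuron, 144 for dorsal horn, 122 for motor neuron and 12.7 for sensory ganglion markers. The median of the other precursors was 17.3. That list includes 9 peptides made mainly in the hypothalamus or pituitary, so its lower median follows in part from the choice of genes.

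The promoters were searched for the cyclic AMP response element, since it is known from several peptide genes. RefSeq windows (GRCm38.p6) of 300 bases were given for 8 of the 10 genes, with a pair of starts for *Pdyn*, and *Penk* and *Grp* had none. The full element TGACGTCA was found in *Sst*, from −48 to −41 with the start counted as 0, and in *Cartpt*, from −112 to −105, beside 1.79% of all 32851 windows. The shorter form TGACG, on either strand and including the copies within a full element, was found in 6 of the 9 windows (6 of the 8 genes), beside 20.8% of all windows. TGACG holds a CG, and 7 of the 9 windows had more CG pairs than the median window (7), with up to 26, whose part in the matches was not tested. *Npy* and *Pdyn* had no match in their windows, and *Npy* was number 3 per kb of all exons and number 4 per kb of the longest transcript. A match is a stretch of letters and not a measured binding site. Within 60 bases before the start, the shorter form was found in *Sst*, *Tac1* and *Cck*, beside 7.69% of all windows. Stretches of 30 bases around the match, in capitals, are shown for comparison with *Sst* above. They lie at chr13:99900777-99900806 on the minus strand for *Cartpt*, where the full element is intact, and at chr6:7555006-7555035 on the plus strand for *Tac1* and chr9:121495724-121495753 on the minus strand for *Cck*, where the shorter form reads in reverse.
Cartpt: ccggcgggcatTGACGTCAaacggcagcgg
Tac1: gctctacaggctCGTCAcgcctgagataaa
Cck: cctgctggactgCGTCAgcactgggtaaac
By GENCODE M21, the *Cartpt* and *Tac1* stretches lie within an annotated 5′ UTR and the *Cck* stretch before the gene.

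**Figure D4:**
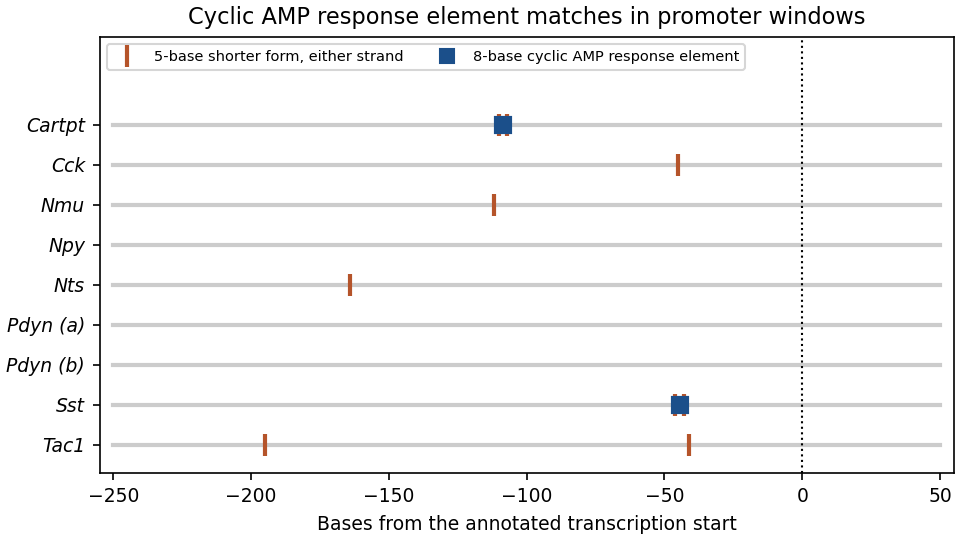
Matches to the 8-base cyclic AMP response element (squares) and its 5-base shorter form on either strand (ticks) by distance in bases from the annotated start (x axis) in each RefSeq promoter window (grey line; *Pdyn* has windows a and b). Matches fall within 60 bases before the start in *Sst*, *Cck* and *Tac1*.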

How the data were processed

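Spinal cord RNA of 5 *SOD1G93A* and 5 WT females was sequenced by the authors as stranded poly(A) libraries with paired reads of 100 bases. By the methods and the submitters' processing notes, the authors filtered reads with Fastp, aligned them to mm10 with HISAT2 (2.1.0), counted unique reads on genes with featureCounts (2.0.2) and ran DESeq2. The gene annotation and strand setting of the counting are not given in the sources used here. The deposited signal used is the base mean, the authors' mean of normalized counts over all 10 libraries. The authors' deposited fold changes, standard errors, Wald statistics and p-values are their own comparison of the genotypes and were not used.

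Base means were divided by exon length from GENCODE M21 (in place of planned RefSeq exons), matched by symbol for 24363 of 25232 genes. The base mean is 1 pooled value per gene, so no depth per library, error or test of it is given. The base means summed to 22158933 normalized counts. The members and lists were chosen with earlier results of these data known. Named were all members and their receptors, and the 3 highest genes per kb of other lists except the glial ones. *Pcsk1*, *Pcsk2*, *Furin*, *Isl1*, *Isl2*, *Mnx1*, *Maf*, *Rorb*, *Tlx3*, *Krtap19-2*, *Krtap19-4* and overlapping genes were named after their values were seen. Protein features and 1 other marker list are not reported here. Promoter windows and coding copies were read from RefSeq and GENCODE tables. The functions for exon length and promoter matches were tested on random input, and that for percentiles on a copy of the real levels with some genes raised. The search for coding copies was not tested in this way. Python 3.11.15, numpy 2.4.6, pandas 2.3.3, scipy 1.17.1 and matplotlib 3.10.9 were used.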

Additional observations from a re-analysis of the deposited data

How the results depend on the processing

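No paired analysis was possible because the table holds no values of single libraries; for the same reason leaving out a replicate, the replicate block and a fit between the genotypes were not run. Relative to the order per kb of all exons, 4 of the 10 genes changed place with the longest transcript, 3 with all exons less 200 bases and 8 with no length. *Sst* and *Penk* stayed on top with each of these, and *Grp* was last with each length. The median percentile of the 10 genes was 70.9. It was 70.6 with the longest transcript, 72.4 with 200 bases taken off, 53.0 with no length, 62.0 among genes whose base mean reached 10 and 75.6 with genes at 0 included. Per 1000000 normalized counts, the 10 genes had 312, and 328 without the 10 most abundant genes; no mitochondrial gene was listed. Of the other 36 precursors, 35 had a base mean over 0, 19 one of at least 10 and 10 one of at least 100. Scaling to neuron markers kept the ratio of highest to lowest base mean (34.7) by construction. With 1 pooled mean per gene, neither biological nor counting error is known, and differences between neighbouring genes have no error attached.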

Other observations

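Among 46 neuropeptide precursors (the 10 genes and 36 others), the 10 genes held 68.1% of the summed level per kb. The 10 highest precursors included 5 of them per kb of all exons, and 6 per kb of the longest transcript or by base mean. *Sst* (26.7%) and *Penk* (23.7%) made up most of the 68.1%. The other 8 genes held 17.6%, less than the 31.9% of the 36 other precursors. These shares hold for the chosen list only, and the list was chosen with earlier results of these data known. In it, 17 of the 36 others had a base mean under 10. The list is not complete, so these are not shares of all neuropeptide precursors of the cord. The others of highest level were *Apln* (apelin, made by many cell types; 539 normalized counts per kb), *Tac2* (neurokinin B; 390) and *Calca* (calcitonin gene-related peptide; 359), each above *Cck* and *Nts*. The *Calca* level stood beside sensory ganglion markers at 2.80 to 51.6 normalized counts per kb. *Calca* is also known from motor neurons, and the source of its RNA was not tested. The 36 others include 9 peptides made mainly in the hypothalamus or pituitary. Of these 9, 2 had a base mean of at least 10, *Pomc* (32.5 normalized counts) and *Agrp* (22.0). The other 7, led by *Pmch* (6.56), were under 10.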
